A study of Mus musculus with 16 samples.

Results

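The 42 genes described here act in fatty acid synthesis, triglyceride storage and lipolysis, and mitochondrial beta oxidation. They were chosen by name, and their rows were taken from a table of 27179 gene identifiers by NCBI Gene number. All 42 were in the table, and all 42 were among the 15516 genes that passed the filter on low counts. They comprise 17 genes of synthesis, 13 of storage and lipolysis, 5 of uptake and nuclear regulation, and 7 of oxidation.

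The libraries came from alveolar type 2 (AT2) cells of mouse lung, the epithelial cells that make surfactant, sorted by fluorescence. Sorted cells lacked surface CD45, CD31 and CD104, carried Epcam and high CD200, and were then divided into CD44- and CD44+ fractions. The labels give 8 lungs, 4 of genotype SP-C WT and 4 of SP-C Mutant (Sftpc, the surfactant protein C gene), and the treatment text OG TMX for all 16 samples, controls included. No source used here gives the Sftpc allele, the driver of recombination, the strain or the age. Library names carry a prefix and an animal number, R26 for animals 1, 2, 7 and 8 and OG for animals 3, 5, 6 and 7, and each prefix has 4 libraries of each sort. Groups are named here by prefix and sort. No label ties a prefix to a genotype. R26 is taken to be the control and OG the Sftpc mutant without a label that says so. If that is wrong, each OG against R26 difference and each interaction changes sign with respect to genotype. The study asked how CD44+ and CD44- AT2 cells differ during fibrosis.

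AT2 cells make fatty acids for the saturated phospholipids of surfactant. Cytosolic acetyl-CoA from citrate is carboxylated to malonyl-CoA and built into palmitate by fatty acid synthase, and the chain is then elongated, desaturated, and activated to acyl-CoA. Acyl-CoA enters phospholipids and triglyceride through shared glycerolipid steps, or is carried into mitochondria by carnitine palmitoyltransferases and oxidized. SREBP-1c, the product of Srebf1, is the main transcriptional activator of the synthesis genes, while PPAR family receptors and their coactivator PGC-1alpha act on uptake, storage and oxidation genes.

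Library totals ran from 9022471 to 21363816 counts, so that 3 counts corresponded to at most 0.333 CPM, the counts scaled to a common library size. Levels below are CPM on a library size adjusted by TMM (trimmed mean of M values), and differences are log2 fold changes ± SE. A gene is said to be higher, lower or to have risen or fallen when edgeR's quasi-likelihood test gave a Benjamini-Hochberg adjusted p under 0.05 over the 15516 genes. The summed level of 11 AT2 markers was 141336 to 166148 CPM in R26 CD44-, 93229 to 133895 in R26 CD44+, 43333 to 46323 in OG CD44- and 21366 to 25770.0 in OG CD44+. All 11 AT2 markers were lower in each of the 4 pairwise comparisons. Summed levels of 12 fibroblast and mural markers were 160 to 197, 1008 to 2077, 1197 to 1255 and 3273 to 5132 CPM in the same order. The 9 lymphocyte and plasma cell markers summed to 5.17 to 14.6, 714 to 1950.1, 40.7 to 75.5 and 753 to 1958 CPM. Of the 6 club and secretory markers, 5 rose between R26 sorts and 6 between OG sorts. Summed levels of the 10 AT1 markers were 2116 to 2335, 2864 to 3315, 4960.0 to 5477 and 5146 to 5629 CPM. Endothelial marker sums were 18.03 to 30.7, 107 to 142, 42.3 to 46.1 and 18.7 to 36.2 CPM, mesothelial sums 8.27 to 9.87, 38.5 to 51.0, 38.4 to 48.4 and 98.4 to 117, ciliated sums 113 to 127, 156 to 271, 173 to 175 and 303 to 392, and macrophage and monocyte sums 24.0 to 28.6, 48.9 to 59.2, 40.4 to 42.5 and 36.8 to 49.2. The 5 adipocyte markers summed to at most 1.40 CPM in any library and none was testable. The 4 basal cell markers, none testable, summed to 46.2 CPM in R26 CD44+ animal 1 and to at most 1.89 CPM in any other library. The part that these markers' cells play in the results below was not tested, and fewer cells of a type and less RNA per cell cannot be told apart in bulk libraries.

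The libraries of OG animals 5, 6 and 7 differed little from each other. Over genes of 20 to 2000 counts, the mean chi-square per gene between pairs of them was 1.42 to 1.80, where 1 is counting noise alone, against 1.58 to 2.65 between pairs of R26 CD44- libraries and 4.11 to 6.23 between pairs of R26 CD44+ libraries. In the CD44- sort, animal 3 differed from them by 1.53 to 1.82. The differences between animals 5, 6 and 7 exceeded counting noise, but this cannot tell separate animals from separate preparations of 1 pool. These libraries were kept as separate replicates. A call lost when these 3 animals were summed to 1 library per sort is given beside its result. The CD44+ library of OG animal 3 stood apart from the other 3, with a chi-square per gene of 4.16 to 4.39 against them and the highest fibroblast, endothelial and plasma cell marker sums of OG CD44+.

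Of the 17 genes of fatty acid synthesis, 13 were lower and 2 higher in OG than in R26 in each sort (76.5% lower, against 29.6% of all genes in CD44- and 34.6% in CD44+ cells). Between sorts, 11 fell and 3 rose in OG (64.7% lower, against 28.0%), and 10 fell and 1 rose in R26 (58.8% lower, against 15.4%). In OG CD44- against R26 CD44-, 26 of the 42 genes were lower (61.9%) and 8 higher (19.0%), against 29.6% and 39.4% of all genes tested. In OG CD44+ against R26 CD44+, 23 were lower (54.8%) and 9 higher (21.4%), against 34.6% and 34.5%. In OG CD44+ against OG CD44-, 20 were lower (47.6%) and 6 higher (14.3%), against 28.0% and 22.3%. In R26 CD44+ against R26 CD44-, 19 were lower (45.2%) and 1 was higher (2.38%), against 15.4% and 21.6%. The median log2 difference of the 42 genes was -0.40, -0.27, -0.25 and -0.24 in these comparisons, and that of all genes 0.12, -0.01, -0.06 and -0.02. Counted in either direction, 34, 32, 26 and 20 of the 42 genes were called, against 69.0%, 69.1%, 50.4% and 37.1% of all genes.

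**Figure D1:**
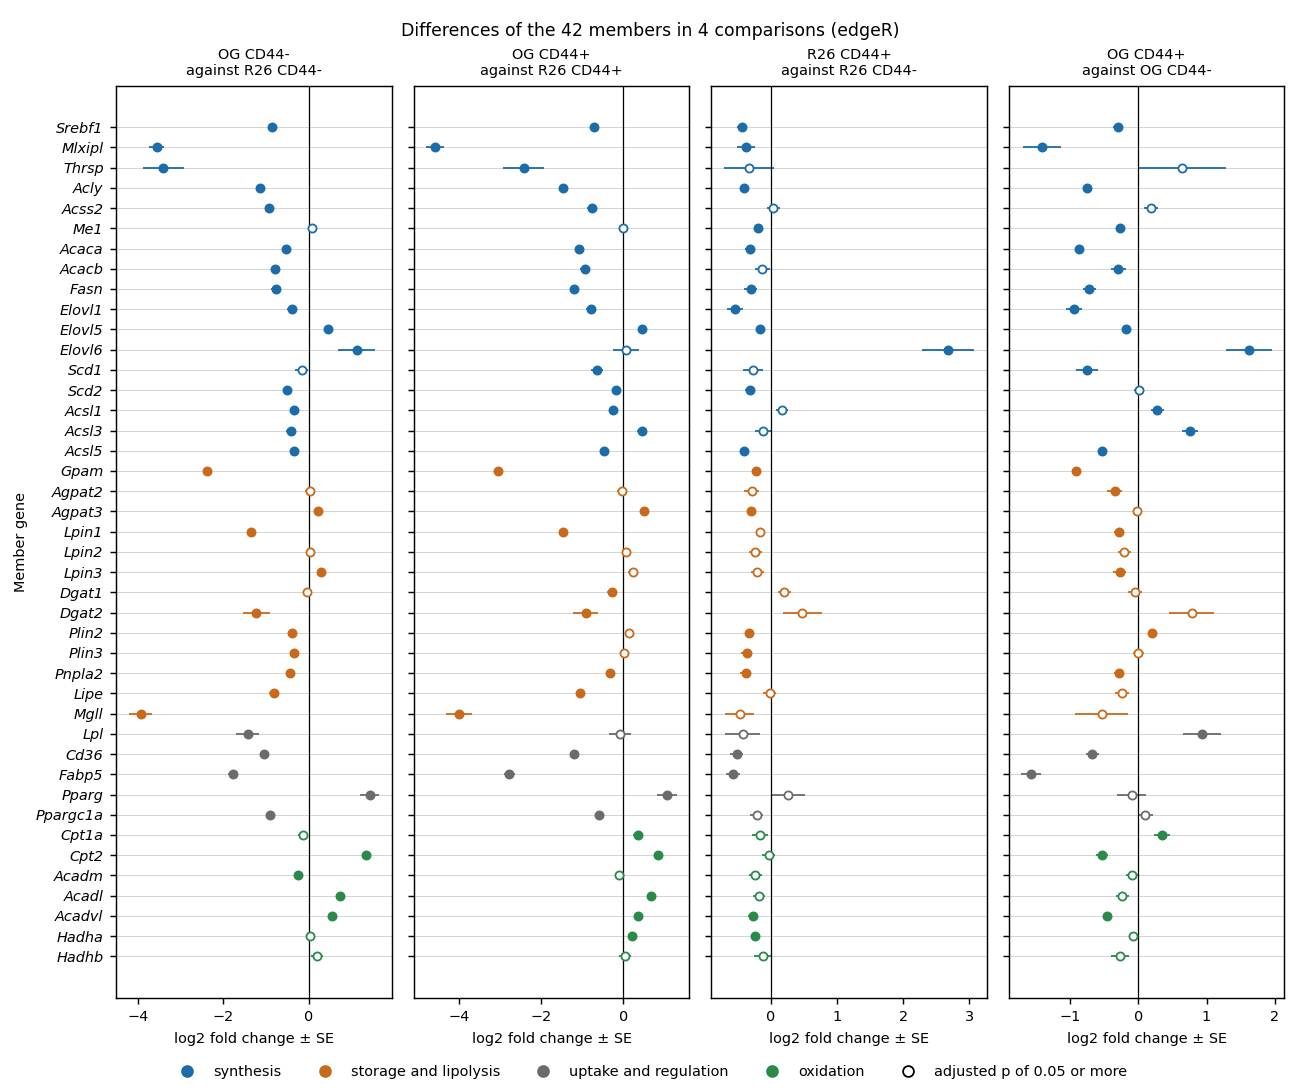
Log2 fold change ± SE (x axis) of each of the 42 genes (y axis, in order of role) in the 4 pairwise comparisons, with filled points for adjusted p under 0.05 and colours for the block of the gene. Most synthesis genes lie left of 0 in every panel, and Mlxipl and Mgll reach -4.58 and -4.0 in OG CD44+ against R26 CD44+.

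The groups did not overlap in any library, with all OG values lower, for 26 genes in the CD44- sorts and 19 in the CD44+ sorts. All OG values were higher for 8 and 7 genes. The groups overlapped for 8 of the 42 genes in the CD44- and 16 in the CD44+ sorts. Of all genes tested, 67.6% and 57.7% did not overlap in these comparisons, both directions counted. In the CD44+ sorts the share of the 42 genes was near that of all genes. Between sorts, all CD44+ values were lower for 22 genes in OG and 10 in R26, and all were higher for 6 and 1. The sorts overlapped for 14 of the 42 genes in OG and 31 in R26. Of all genes, 51.0% and 28.8% did not overlap, both directions counted, and in R26 the share of the 42 genes was near this. The CD44 comparisons in the 2 prefixes share no library. In them, 14 genes fell in both, which is 70.0% of the 20 that fell in OG and 73.7% of the 19 that fell in R26: Srebf1, Mlxipl, Acly, Me1, Acaca, Fasn, Elovl1, Elovl5, Acsl5, Gpam, Pnpla2, Cd36, Fabp5 and Acadvl. Elovl6 rose in both, and Plin2 fell in R26 and rose in OG. For all genes tested the shares lower in both were 33% of those lower in OG and 60.0% of those lower in R26. The OG against R26 comparisons used different sorts of the same animals. In them 21 genes were lower in both sorts and 6 were higher in both (Elovl5, Agpat3, Pparg, Cpt2, Acadl and Acadvl), while Acsl3 was lower in CD44- and higher in CD44+ cells. The 21 were 80.8% of the 26 lower in CD44- cells and 91.3% of the 23 lower in CD44+ cells. For all genes tested these shares were 84.9% and 72.6%. The 6 were among 8 higher in CD44- and 9 higher in CD44+ cells, and for all genes 4514 were higher in both, of 6113 and 5358.

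How the libraries were scaled moved the split of calls over all genes. In R26 CD44+ against R26 CD44-, 58.4% of the calls were higher, but 48.0% with DESeq2 size factors, 77.8% with library totals alone and 38.2% with TMM against the CD44- library of OG animal 7. In OG CD44- against R26 CD44- the share was 57.1%, and 68.4% with library totals alone, which moved the median over all genes from 0.12 to 0.29. No call on any of the 42 genes reversed between scalings in the 4 pairwise comparisons.

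Srebf1 (gene 20787, chromosome 11, 60199084 to 60224186, GRCm38.p6) encodes SREBP-1. Its level in animals 1, 2, 7 and 8 was 450.3, 456, 414 and 389 CPM in R26 CD44- and 303, 371, 302 and 285 CPM in R26 CD44+. In animals 3, 5, 6 and 7 it was 230.4, 249, 221 and 239 CPM in OG CD44- and 176, 183, 206 and 199 CPM in OG CD44+. The 4 groups followed that order without any overlap. Srebf1 fell by 0.86 ± 0.07 in OG CD44- against R26 CD44- (edgeR adjusted p = 6.26e-10) and by 0.72 ± 0.07 in the CD44+ sorts (1.40e-08). Between sorts it fell by 0.44 ± 0.07 in R26 (4.86e-05) and by 0.30 ± 0.07 in OG (0.00179), and the interaction of prefix and CD44, the OG difference minus the R26 difference, was 0.14 ± 0.10 (0.345). Mlxipl (gene 58805, chromosome 5, 135089890 to 135139768) encodes ChREBP, the carbohydrate-responsive activator of the same genes. It was at 17.1, 19.1, 20.2 and 22.2 CPM in R26 CD44-, 11.3, 18.5, 15.4 and 15.5 in R26 CD44+, 1.27, 2.42, 1.57 and 1.56 in OG CD44-, and 0.575, 0.699, 0.499 and 0.697 in OG CD44+. Every OG library was below every R26 library, with log2 differences of -3.56 ± 0.17 (4.60e-15) and -4.58 ± 0.22 (3.06e-15). The CD44 difference of Mlxipl was -1.40 ± 0.28 in OG (1.94e-04) and -0.38 ± 0.14 in R26 (0.0358). The R26 call was lost with library totals alone (0.116), with a minimum of 50 counts in 4 libraries (0.0609), with only the 8 R26 libraries (0.0651), without R26 CD44+ animal 1 (0.0566) and without R26 CD44- animal 8 (0.0549). Thrsp, which encodes the lipogenic protein Spot 14, was at 2.04 to 2.58 CPM in R26 CD44-, 0.936 to 2.64 in R26 CD44+, 0 to 0.585 in OG CD44- and 0.210 to 0.499 in OG CD44+. It was lower in OG in both sorts, but OG libraries held only 0 to 9 counts of it.

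The promoters of Fasn, Acly and Mlxipl are shown as those of a synthase, a supplier of acetyl-CoA and a regulator among the genes that fell in all 4 comparisons, with capitals for the motif letters found in them. Each is the RefSeq window of GRCm38.p6 from 250 bases before to 50 after a transcript start, read 5′ to 3′ on the gene's strand.
Fasn, chr11:120824498-120824797, minus strand: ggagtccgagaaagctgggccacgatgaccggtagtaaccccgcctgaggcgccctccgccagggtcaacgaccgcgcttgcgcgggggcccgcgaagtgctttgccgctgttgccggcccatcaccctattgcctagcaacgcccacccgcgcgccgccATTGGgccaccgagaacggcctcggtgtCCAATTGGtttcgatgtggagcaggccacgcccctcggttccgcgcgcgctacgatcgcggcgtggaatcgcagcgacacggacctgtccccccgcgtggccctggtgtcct
Acly, chr11:100527951-100528250, minus strand: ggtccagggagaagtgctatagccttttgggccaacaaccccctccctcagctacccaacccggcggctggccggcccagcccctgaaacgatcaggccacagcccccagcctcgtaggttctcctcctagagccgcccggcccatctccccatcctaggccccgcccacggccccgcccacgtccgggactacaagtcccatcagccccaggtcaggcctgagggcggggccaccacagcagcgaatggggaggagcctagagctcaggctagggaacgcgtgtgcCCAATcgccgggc
Mlxipl, chr5:135089640-135089939, plus strand: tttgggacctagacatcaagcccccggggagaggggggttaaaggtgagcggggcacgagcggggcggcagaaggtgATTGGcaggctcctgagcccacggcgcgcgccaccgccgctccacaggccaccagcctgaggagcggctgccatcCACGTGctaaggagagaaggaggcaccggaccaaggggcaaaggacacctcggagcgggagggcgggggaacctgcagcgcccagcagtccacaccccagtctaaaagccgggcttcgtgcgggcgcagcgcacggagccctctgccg
The motifs searched on both strands were the sterol regulatory element TCACNCCAC, the E-box CACGTG, the CCAAT box CCAAT and a PPAR response element, the direct repeat of AGGTCA with any base between the copies. The Fasn window held 3 CCAAT boxes, starting at -90, -62 and -59 from the transcript start, the last 2 of which overlap. The Acly window held 1 CCAAT box, at 38, and the Mlxipl window a CCAAT box at -173 and an E-box at -98. Windows were found for 36 of the 42 genes (50 windows in all). The CCAAT box was in 22 of the 50 windows (44%) and in 37.4% of the 32851 windows of all genes, the E-box in 7 (14%) and 7.15%, the sterol element in 2 (4%, in Acsl1 and in another window of Mlxipl) and 1.24%, and the PPAR element in 0 and 0.0396%. A match of letters is a description of the sequence only.

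Acly, Acss2 and Me1 supply cytosolic acetyl-CoA and NADPH. Acly (ATP citrate lyase, gene 104112, chromosome 11, 100476352 to 100528000) had 986 to 1059 CPM in R26 CD44-, 702 to 901 in R26 CD44+, 454 to 467 in OG CD44- and 274 to 277 in OG CD44+, with no overlap between any groups. It fell by 1.14 ± 0.06 (1.36e-14) and 1.48 ± 0.06 (1.36e-16) between prefixes, in CD44- and CD44+ cells, and between sorts by 0.40 ± 0.06 in R26 (5.60e-06) and 0.74 ± 0.06 in OG (4.66e-10). Acss2, which makes acetyl-CoA from acetate, fell between prefixes by 0.92 ± 0.10 in CD44- cells (2.24e-08) and 0.77 ± 0.11 in CD44+ cells (6.37e-07), with CD44 differences of 0.04 ± 0.10 and 0.19 ± 0.11 in R26 and OG that did not pass. Me1 (malic enzyme) showed the other pattern. It fell between sorts, by 0.19 ± 0.04 in R26 (0.00160) and 0.26 ± 0.04 in OG (3.21e-05), while its differences between prefixes were 0.06 ± 0.04 and -0.01 ± 0.04 and did not pass. With library totals alone, the R26 fall of Me1 had an adjusted p of 0.116.

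Fasn (fatty acid synthase, gene 14104, chromosome 11, 120805958 to 120825166) had 5643, 5743, 5025 and 4571 CPM in R26 CD44- of animals 1, 2, 7 and 8, and at 3989, 5469.8, 3979 and 3592 CPM in R26 CD44+. It was at 3094, 3085, 2967 and 3053 CPM in OG CD44- of animals 3, 5, 6 and 7, and at 1773, 1809.7, 1929 and 1926 CPM in OG CD44+. The R26 sorts overlapped through animal 2 alone, whose CD44+ library also had the highest AT2 marker sum of R26 CD44+, 133895 CPM against 93229 to 95404 in the other 3. All OG libraries were below all R26 libraries, and all OG CD44+ below all OG CD44-. Fasn fell by 0.78 ± 0.10 in OG CD44- against R26 CD44- (7.10e-07), 1.19 ± 0.10 in the CD44+ sorts (1.81e-09), 0.71 ± 0.10 between OG sorts (6.33e-06) and 0.30 ± 0.10 between R26 sorts (0.0198). The R26 call was lost when only the 8 R26 libraries were fitted (adjusted p = 0.107) and with no filter on low counts (0.0619). Acaca, the acetyl-CoA carboxylase of cytosolic synthesis, fell by 0.53 ± 0.07 (4.72e-07) and 1.07 ± 0.07 (8.75e-12) between prefixes, and by 0.32 ± 0.07 in R26 (8.74e-04) and 0.86 ± 0.07 in OG (2.39e-09) between sorts. Acacb, the carboxylase of the outer mitochondrial membrane, fell between prefixes by 0.79 ± 0.11 (1e-06) and 0.95 ± 0.12 (1.77e-07). Its OG CD44 difference of -0.29 ± 0.12 (0.0438) lost the call in 20 alternatives, including with OG animals summed (0.123) and without each of 14 single libraries.

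**Figure D2:**
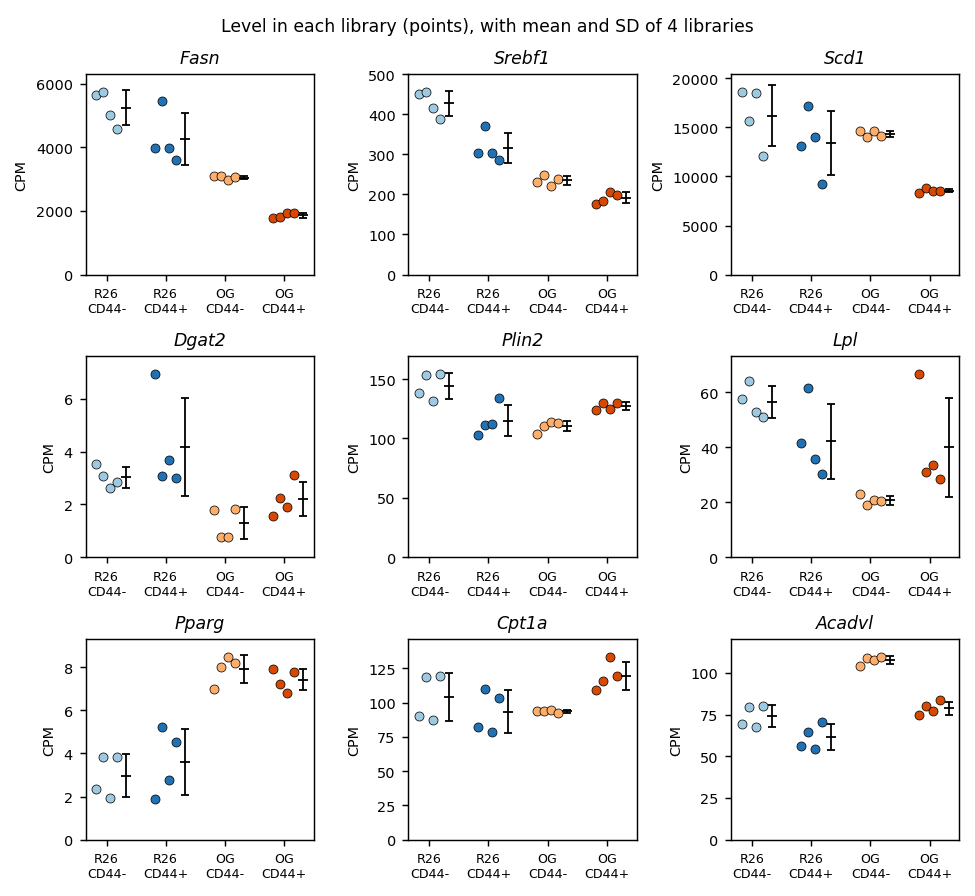
Level in CPM (y axis, from 0) of 9 genes in each of the 16 libraries, by group (x axis), with the mean and SD of 4 libraries beside the points. Fasn and Srebf1 decrease from R26 CD44- to OG CD44+, Pparg and Acadvl are higher in OG CD44- than in R26 CD44-, and the CD44+ library of OG animal 3 stands above the others for Lpl at 66.5 CPM.

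Elongases and desaturases did not move as 1 group. Elovl1, which elongates saturated very long chains, fell in all 4 comparisons, by 0.40 ± 0.12 (0.00596) and 0.79 ± 0.12 (2.04e-05) between prefixes and by 0.54 ± 0.12 (0.00170) and 0.93 ± 0.12 (9.37e-06) between sorts in R26 and OG. Elovl5, which elongates polyunsaturated chains, was higher in OG by 0.45 ± 0.05 in both sorts (2.53e-08 and 3.62e-08), and lower in CD44+ cells by 0.17 ± 0.05 in R26 (0.0114) and in OG (0.00626). The R26 CD44 call of Elovl5 was lost with library totals alone (0.238) and with only the 8 R26 libraries fitted (0.101). Its OG CD44 call was lost with animals 5, 6 and 7 summed (0.0679) and with TMM against OG animal 7 CD44- (0.0677). The OG call was also lost without any single R26 CD44- library or R26 CD44+ animal 7 (0.0508 to 0.0603). Elovl6, which elongates palmitate, was the 1 gene that rose in CD44+ cells of R26. It was at 0.167 to 0.563 CPM in R26 CD44-, 1.53 to 3.46 in R26 CD44+, 0.404 to 1.0 in OG CD44- and 2.17 to 2.63 in OG CD44+. Its log2 differences between sorts were 2.68 ± 0.40 in R26 (8.69e-06) and 1.62 ± 0.33 in OG (2.92e-04), on 2 to 8 counts per library in R26 CD44-. Its difference of 1.12 ± 0.43 in OG CD44- against R26 CD44- (0.0257) lost the call with OG animals summed (0.107) without R26 CD44- animal 2 or 7 (0.125 and 0.137), and without OG CD44- animal 5, 6 or 7 (0.0541 to 0.0633). Scd1, the main stearoyl-CoA desaturase of AT2 cells, was at 18621, 15664, 18467 and 12038 CPM in R26 CD44-, 13128, 17145, 14065 and 9257 in R26 CD44+, 14672, 14051, 14589.7 and 14131 in OG CD44-, and 8364, 8816, 8506 and 8541 in OG CD44+. R26 libraries spread widely, R26 animal 8 was the lowest of each R26 sort, and all OG CD44+ values lay below all others. Scd1 fell by 0.75 ± 0.15 between OG sorts (9.59e-04) and by 0.65 ± 0.15 in OG CD44+ against R26 CD44+ (0.00171), while its differences of -0.17 ± 0.15 in the CD44- sorts (0.329) and -0.27 ± 0.15 between R26 sorts (0.187) did not pass. The R26 difference passed in 3 of 26 alternatives, among them with the animal as a block (-0.29, 0.0156). Scd2 fell in OG CD44- against R26 CD44- by 0.51 ± 0.08 (7.68e-06) and between R26 sorts by 0.31 ± 0.08 (0.00320), and its OG CD44 difference was 0.01 ± 0.08 (0.903). Its difference of -0.18 ± 0.08 in the CD44+ sorts (0.0494) lost the call in 19 alternatives, OG animals summed among them (0.126). The Scd genes are near copies, and reads shared between them may have been split by the counting.

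The 3 acyl-CoA synthetases differed from one another. Acsl5 fell in all 4 comparisons, by 0.35 ± 0.05 to 0.53 ± 0.05. Acsl3, which acts at the endoplasmic reticulum and lipid droplet, was at 25.4 to 31.8 CPM in R26 CD44-, 19.7 to 31.9 in R26 CD44+, 18.3 to 22.6 in OG CD44- and 29.4 to 38.2 in OG CD44+. It rose by 0.75 ± 0.11 between OG sorts (1.38e-05), without overlap, and was lower than R26 in CD44- cells (-0.43 ± 0.12, 0.00266) and higher in CD44+ cells (0.45 ± 0.12, 0.00200). Acsl1 rose by 0.28 ± 0.09 between OG sorts (0.0104) and was lower in OG in both sorts. The OG CD44 call of Acsl1 was lost without OG CD44+ animal 5 (0.0768) and with animals 5, 6 and 7 summed (0.116). Its call in the CD44- sorts was lost with library totals alone (0.0506). In OG CD44+ against R26 CD44+ the call was lost without OG CD44+ animal 3 (0.0657), animal 6 (0.0703) or R26 CD44+ animal 8 (0.0685). It was also lost there without both libraries of OG animal 3 (0.0727) and with library totals alone (0.115). The same held with TMM against OG animal 7 CD44- (0.0525) and with no low count filter (0.0514).

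Gpam (gene 14732, chromosome 19, 55067635 to 55127319) encodes the mitochondrial glycerol-3-phosphate acyltransferase that starts glycerolipid assembly. Its level was 366, 371, 347 and 361 CPM in R26 CD44-, 273, 352, 303 and 305 in R26 CD44+, 64.8, 73.5, 70.7 and 68.6 in OG CD44-, and 37.6, 35.0, 38.5 and 37.1 in OG CD44+. Every OG library was far below every R26 library, and no OG CD44+ value reached an OG CD44- value. Gpam fell by 2.38 ± 0.06 (3.02e-20) and 3.06 ± 0.07 (1.36e-21) between prefixes, and by 0.23 ± 0.06 in R26 (0.00288) and 0.91 ± 0.06 in OG (8.19e-11) between sorts. Of the later acyltransferases, Agpat3 was higher in OG by 0.22 ± 0.06 in CD44- cells (0.00193) and 0.49 ± 0.06 in CD44+ cells (1.02e-07), and fell between R26 sorts by 0.29 ± 0.06 (3.49e-04). Its call in the CD44- sorts was lost without R26 CD44- animal 1, 7 or 8 and without any single R26 CD44+ library. TMM against OG animal 7 CD44- lost it as well (0.0524). Agpat2 fell between OG sorts by 0.34 ± 0.11 (0.0139), a call lost with OG animals summed (0.101). Its R26 difference did not pass, but did in 17 of 26 alternatives, among them with the animal as a block (-0.30, 0.00181).

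Lipins dephosphorylate phosphatidate to diacylglycerol. Lpin1 was lower in OG, at 21.5 to 23.6 CPM in OG CD44- against 55.9 to 60.7 in R26 CD44- and 17.6 to 20.97 in OG CD44+ against 48.2 to 58.1 in R26 CD44+. These differences were -1.36 ± 0.07 (1.58e-14) and -1.47 ± 0.07 (1.10e-14). Lpin2 differed by 0.03 ± 0.10 and 0.07 ± 0.10 between prefixes, which did not pass, and with the animal as a block it fell between sorts by 0.25 in R26 (5.91e-06) and 0.20 in OG (7.34e-05). These falls passed in 9 and 2 of 26 alternatives, the block among them. Lpin3 was 0.29 ± 0.09 higher in OG CD44- (0.00875) and fell by 0.27 ± 0.09 between OG sorts (0.0204). The first of these calls was lost without any single R26 library and with TMM against OG animal 7 CD44- (0.0717). The second was lost in 13 alternatives, OG animals summed among them (0.0932). In OG CD44+ against R26 CD44+, Lpin3 did not pass, but was higher in 12 of 25 alternatives. Diacylglycerol acyltransferases complete triglyceride. Dgat2 was at 3.54, 3.08, 2.63 and 2.84 CPM in R26 CD44-, 6.93, 3.09, 3.68 and 3.02 in R26 CD44+, 1.79, 0.752, 0.762 and 1.82 in OG CD44-, and 1.56, 2.24, 1.91 and 3.10 in OG CD44+. The CD44- groups did not overlap, and 1 library, R26 CD44+ animal 1, lay well above the rest. That library had the highest fibroblast and mural marker sum of R26 CD44+, 2077 CPM against 1008 to 1306. Its basal marker sum was 46.2 CPM, against 0.238 to 0.628 in the other R26 CD44+ libraries. Whether these sums relate to its Dgat2 level was not tested. Dgat2 was lower in OG by 1.23 ± 0.32 in CD44- cells (0.00153) and by 0.92 ± 0.31 in CD44+ cells (0.00991), the latter not without R26 CD44+ animal 1 (-0.56, 0.0990). The OG CD44 difference of Dgat2, 0.78 ± 0.33 (0.0517), passed in 17 of 25 alternatives, among them with the animal as a block (0.0146). Dgat1 differed by -0.29 ± 0.10 in OG CD44+ against R26 CD44+ (0.0136), a call lost with library totals alone (0.0955), with OG animals summed (0.0864), and without OG CD44+ animal 5, R26 CD44+ animal 7 or R26 CD44+ animal 8.

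Plin2 and Plin3 coat lipid droplets. Plin2 was at 139, 153, 131 and 154 CPM in R26 CD44-, 103, 111, 112 and 134 in R26 CD44+, 104, 111, 114 and 113 in OG CD44-, and 124, 130.1, 125 and 129.9 in OG CD44+. It was highest in R26 CD44-, and OG CD44+ lay above OG CD44- in every library. Plin2 fell between R26 sorts by 0.33 ± 0.07 (2.95e-04) and in OG CD44- against R26 CD44- by 0.39 ± 0.06 (1.07e-05). It rose between OG sorts by 0.20 ± 0.06 (0.0105), a call lost with OG animals 5, 6 and 7 summed (0.133) and without both libraries of animal 3 (0.0512). Plin3 fell by 0.37 ± 0.08 between R26 sorts (0.00113) and by 0.35 ± 0.08 in OG CD44- against R26 CD44- (5.63e-04), with an OG CD44 difference of 0.00 ± 0.08 (0.979).

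Pnpla2, Lipe and Mgll encode the 3 lipases that remove the fatty acids of triglyceride in turn. Mgll (monoglyceride lipase, gene 23945, chromosome 6, 88724412 to 88828360) had 64.0, 98.7, 58.8 and 98.4 CPM in R26 CD44-, 45.0, 72.3, 40.4 and 73.7 in R26 CD44+, 4.33, 4.93, 5.20 and 6.37 in OG CD44-, and 3.45, 2.87, 4.65 and 3.49 in OG CD44+. The highest OG library, at 6.37 CPM, was far below the lowest R26 library, at 40.4 CPM. Mgll fell by 3.94 ± 0.28 (2.22e-08) and 4.0 ± 0.31 (6.65e-08) between prefixes. Its CD44 differences of -0.47 ± 0.22 in R26 (0.114) and -0.53 ± 0.39 in OG (0.281) did not pass, but did with the animal as a block (3.09e-08 and 9.44e-04). They passed in 6 and 2 of 26 alternatives, the block among them. Lipe (hormone-sensitive lipase) fell between prefixes by 0.83 ± 0.10 (5.71e-08) and 1.05 ± 0.10 (2.69e-09). Its OG CD44 difference of -0.24 ± 0.10 (0.0604) passed in 3 of 26 alternatives, among them with the animal as a block (0.0148). Pnpla2 (adipose triglyceride lipase) fell in all 4 comparisons, by 0.28 ± 0.08 to 0.44 ± 0.08, and its OG CD44 call was lost with animals 5, 6 and 7 summed (0.0575).

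The promoter of Mgll, the gene with the largest log2 fall among the 42 in the CD44- sorts, and that of Cpt2, whose level rose most between prefixes among the oxidation genes, are windows of the same kind.
Mgll, chr6:88724162-88724461, plus strand: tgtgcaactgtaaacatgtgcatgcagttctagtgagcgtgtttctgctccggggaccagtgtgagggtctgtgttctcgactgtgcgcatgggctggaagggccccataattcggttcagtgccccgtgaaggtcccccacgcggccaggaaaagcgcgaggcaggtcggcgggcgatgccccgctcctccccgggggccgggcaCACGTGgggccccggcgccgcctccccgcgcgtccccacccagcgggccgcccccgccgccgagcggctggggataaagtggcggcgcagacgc
Cpt2, chr4:107923540-107923839, minus strand: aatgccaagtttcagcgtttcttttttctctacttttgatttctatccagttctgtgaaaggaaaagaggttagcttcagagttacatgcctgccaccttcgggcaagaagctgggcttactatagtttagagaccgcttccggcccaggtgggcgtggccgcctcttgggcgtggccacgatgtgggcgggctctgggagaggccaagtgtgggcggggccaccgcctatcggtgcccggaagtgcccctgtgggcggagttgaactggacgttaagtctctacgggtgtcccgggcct
The Mgll window held 1 E-box, at -44, and the Cpt2 window none of the 4 motifs.

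Uptake genes were lower in OG CD44- than in R26 CD44-. Lpl (lipoprotein lipase, gene 16956, chromosome 8, 68880555 to 68906932) had 57.5, 64.1, 52.9 and 51.0 CPM in R26 CD44-, 41.5, 61.5, 35.6 and 30.3 in R26 CD44+, 22.8, 18.9, 20.8 and 20.4 in OG CD44-, and 66.5, 31.1, 33.6 and 28.4 in OG CD44+. OG CD44- was below all other groups, and in OG CD44+ animal 3 was above every R26 library while the other 3 were near the lowest R26 CD44+ library. Lpl fell by 1.43 ± 0.27 in OG CD44- against R26 CD44- (3.60e-04) and rose by 0.93 ± 0.27 between OG sorts (0.0125). Without OG CD44+ animal 3, the library with the highest fibroblast and mural marker sum (5132 CPM against 3273 to 3356), the rise was 0.57 (0.0244), and with animals 5, 6 and 7 summed it was 1.14 (0.0517). Cd36, the fatty acid translocase, fell in all 4 comparisons, from 1588 to 1971 CPM in R26 CD44- and 1052 to 1473 in R26 CD44+ to 815 to 891 in OG CD44- and 486 to 570.3 in OG CD44+, with no overlap between groups. Its prefix differences were -1.05 ± 0.09 (1.40e-08) and -1.21 ± 0.10 (2.35e-09), and its CD44 differences -0.52 ± 0.09 in R26 (2.59e-04) and -0.67 ± 0.09 in OG (1.29e-05). Fabp5, a cytosolic fatty acid binding protein, fell from 19.4 to 26.5 CPM in R26 CD44- and 13.5 to 17.2 in R26 CD44+ to 6.23 to 6.90 in OG CD44- and 1.99 to 2.48 in OG CD44+. Its CD44 difference was -0.57 ± 0.11 in R26 (1.47e-04) and -1.56 ± 0.14 in OG (5.64e-09).

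The nuclear regulators moved in opposite directions between prefixes. Pparg, the receptor of lipid storage genes, was at 2.33, 3.83, 1.91 and 3.81 CPM in R26 CD44-, 1.87, 5.23, 2.78 and 4.52 in R26 CD44+, 6.98, 8.02, 8.47 and 8.19 in OG CD44-, and 7.89, 7.20, 6.81 and 7.75 in OG CD44+. All OG values lay above all R26 values, by 1.41 ± 0.23 (7.90e-06) and 1.06 ± 0.24 (3.69e-04). Ppargc1a (PGC-1alpha) was lower in OG by 0.91 ± 0.10 (3.62e-08) and 0.59 ± 0.11 (4.32e-05). Neither gene differed between sorts beyond the threshold in R26 or OG. Ppargc1a did fall between R26 sorts in 6 of 26 alternatives, and its interaction passed in 6 of 25.

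Several oxidation genes were higher in OG. In OG CD44+ against R26 CD44+, 5 of the 7 were higher and 0 lower (71.4% higher against 34.5% of all genes), and in the CD44- sorts 3 were higher and 1 lower (42.9% higher, near the 39.4% of all genes). The median differences of the 7 were 0.36 and 0.18. Cpt1a, which makes acyl-carnitine at the outer mitochondrial membrane, was at 90.2, 119, 87.4 and 119 CPM in R26 CD44-, 82.2, 109.5, 78.3 and 103 in R26 CD44+, 94.1, 93.9, 94.4 and 92.2 in OG CD44-, and 109, 116, 133 and 119 in OG CD44+. OG CD44- lay between the R26 animals, and OG CD44+ was above OG CD44- in every animal. Cpt1a rose by 0.35 ± 0.12 between OG sorts (0.0224), a call lost without OG CD44+ animal 6 (0.0689), without OG CD44- animal 7 (0.0511), with no low count filter (0.0518) and with OG animals summed (0.246). It was 0.36 ± 0.12 higher in OG CD44+ than in R26 CD44+ (0.0155; 0.0940 with OG animals summed). Cpt2 (gene 12896, chromosome 4, 107903982 to 107923589), which returns the acyl group to coenzyme A inside mitochondria, was at 16.4 to 19.0 CPM in R26 CD44-, 13.9 to 21.1 in R26 CD44+, 42.1 to 48.3 in OG CD44- and 28.7 to 34.1 in OG CD44+. It rose by 1.34 ± 0.09 (2.51e-12) and 0.84 ± 0.10 (3.24e-08) between prefixes and fell by 0.52 ± 0.09 between OG sorts (1.97e-05).

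Among acyl-CoA dehydrogenases, Acadvl (very long chain) was at 69.1, 79.5, 67.8 and 80.0 CPM in R26 CD44-, 56.1, 64.7, 54.3 and 70.8 in R26 CD44+, 104, 109, 108 and 109.6 in OG CD44-, and 74.6, 80.2, 77.2 and 83.5 in OG CD44+. OG CD44- was above all other groups. Acadvl was higher in OG by 0.54 ± 0.07 (2.67e-07) and 0.36 ± 0.07 (1.17e-04), and lower in CD44+ cells by 0.27 ± 0.07 in R26 (0.00470) and 0.45 ± 0.07 in OG (1.04e-05). With only the 8 R26 libraries fitted, the R26 fall had an adjusted p of 0.0524. Acadl (long chain) was higher in OG by 0.72 ± 0.09 (2.94e-06) and 0.67 ± 0.10 (9.23e-06), and its falls between sorts of 0.18 in R26 (0.00197) and 0.23 in OG (1.63e-05) passed with the animal as a block, and in 5 and 3 other alternatives. Acadm (medium chain) was 0.26 ± 0.09 lower in OG CD44- (0.0168), a call lost with library totals alone (0.403), with no low count filter (0.0681), with OG animals summed (0.130) and without OG CD44- animal 5 (0.0639). Hadha, the alpha subunit of the trifunctional protein, was 0.20 ± 0.06 higher in OG CD44+ (0.00228) and fell by 0.24 ± 0.06 between R26 sorts (0.00112), while Hadhb, the beta subunit, passed in none of the 4 comparisons.

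The R26 animals differed among themselves more than the OG animals did. For 13 of the 42 genes, both libraries of animals 2 and 8 were above those of animals 1 and 7 of the same sort: Mgll, Lipe, Cpt1a, Acadm, Acadl, Acadvl, Hadha, Cd36, Pparg, Acaca, Acsl1, Agpat3 and Thrsp. That pattern was picked out after the values were seen. It was not counted over all genes, so it cannot be called particular to these 42. The number in a library's name was read as the animal that gave both sorts and served as a block. With the block, 18 of the 126 values of the 42 genes in the CD44 comparisons and the interaction gained a call and 0 lost it. With it, 27 of the 42 genes fell between R26 sorts and 24 between OG sorts, against 19 and 20 without it. Over all genes, 2969 and 4785 fell with the block, against 2393 and 4351 without it. Among the gains not given above, Lpin1 fell by 0.16 (0.0294), Cpt1a by 0.15 (0.00803) and Acadm by 0.24 (0.0114) between R26 sorts. Counting the block, these falls passed in 12, 1 and 10 of 26 alternatives.

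**Figure D3:**
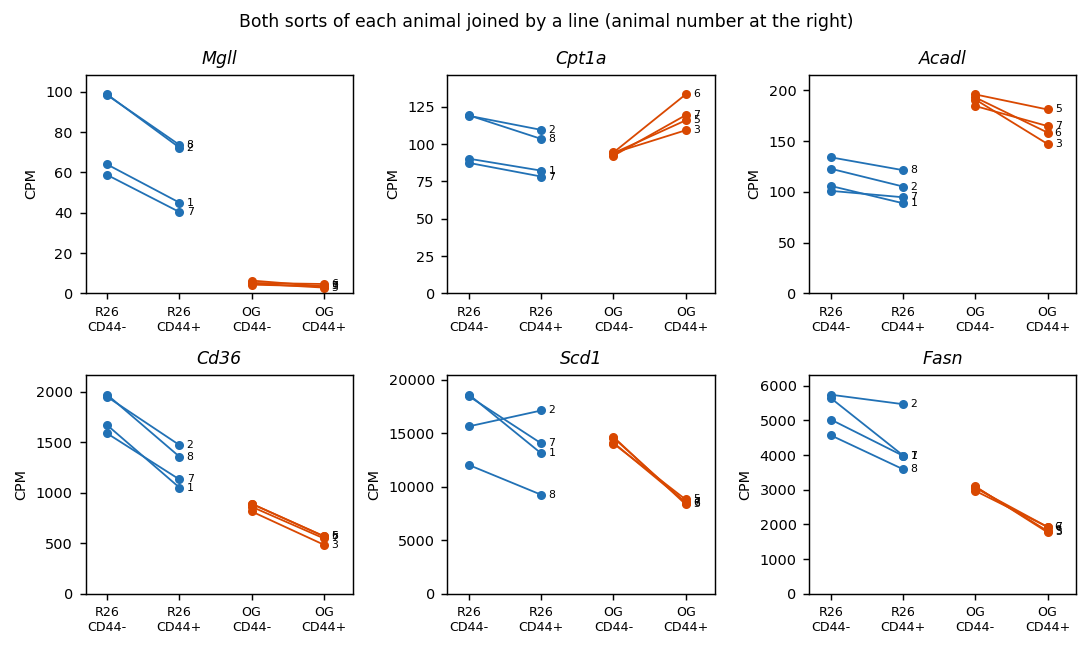
Level in CPM (y axis, from 0) of 6 genes in the CD44- and CD44+ libraries of each animal, joined by a line, for R26 (left) and OG (right). Mgll falls in all 4 R26 animals, from 64.0, 98.7, 58.8 and 98.4 to 45.0, 72.3, 40.4 and 73.7 CPM, and Scd1 of R26 animal 2 is the line that rises among the R26 animals.

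The test of whether the CD44 difference differed between prefixes called 14 of the 42 genes (24.7% of all genes), 7 with a higher and 7 with a lower value in OG (16.7% each, against 6.57% and 18.1% of all genes). The OG difference was the more negative for Mlxipl, Fabp5, Gpam, Acaca, Cpt2, Fasn and Acly, and the more positive for Lpl, Acsl3, Plin2, Cpt1a, Plin3, Scd2 and Agpat3. Gpam had an interaction of -0.68 ± 0.09 (edgeR adjusted p = 3.07e-06), Fabp5 of -0.997 ± 0.18 (2.38e-04) and Acaca of -0.54 ± 0.10 (3.17e-04). Acsl3 had 0.87 ± 0.16 (5.05e-04) and Plin2 0.53 ± 0.09 (1.38e-04). These 5 calls held in every alternative run. Lpl had 1.36 ± 0.38 (0.0198), Agpat3 0.27 ± 0.08 (0.0189) and Plin3 0.37 ± 0.11 (0.0214), all of which lost the call with OG animals 5, 6 and 7 summed (0.0704, 0.213 and 0.156). Fasn had -0.41 ± 0.14 (0.0344), and its call was lost in 17 alternatives, among them with OG animals summed (0.168) and without any single R26 library but CD44+ animal 8, with a value of -0.15 without R26 CD44+ animal 2. Acly (-0.34 ± 0.08, 0.00345), Cpt2 (-0.49 ± 0.13, 0.00754) and Mlxipl (-1.03 ± 0.31, 0.0188) each lost the call with OG animals summed (0.0686, 0.0669 and 0.0800), without R26 CD44+ animal 2 (0.0680, 0.0829 and 0.0550) and without several other single R26 libraries. Scd2 (0.33 ± 0.11, 0.0358) and Cpt1a (0.51 ± 0.17, 0.0395) lost it with OG animals summed (0.319 and 0.237) and without several single OG libraries. Mlxipl lost the call without OG CD44+ animal 6 as well (0.0508). The interaction depends on scaling. With TMM against OG animal 7 CD44-, Fasn (0.180), Acly (0.0948) and Cpt2 (0.0565) lost the call. Fasn also lost it with DESeq2 size factors (0.0716). Of all calls, 26.6% were higher as reported, 39.1% with DESeq2 size factors, 15.9% with library totals alone and 58.3% with TMM against OG animal 7 CD44-, where the median over all genes moved from -0.10 to 0.06. Of all calls 51.0% to 53.5% were higher when any single R26 library was left out. With the animal as a block, Elovl1 (-0.37, 0.00152), Scd1 (-0.46, 0.0110), Cd36 (-0.15, 0.0457) and Acadvl (-0.18, 0.0439) were also lower and Hadha higher (0.17, 0.0210), which made 8 genes higher and 11 lower. Over all genes, 1449 were higher and 3525 lower with the block, against 1019 and 2806 without it. Hadha passed in 12 of 25 alternatives, Elovl1 and Scd1 in 2, and Cd36 and Acadvl in 1.

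**Figure D4:**
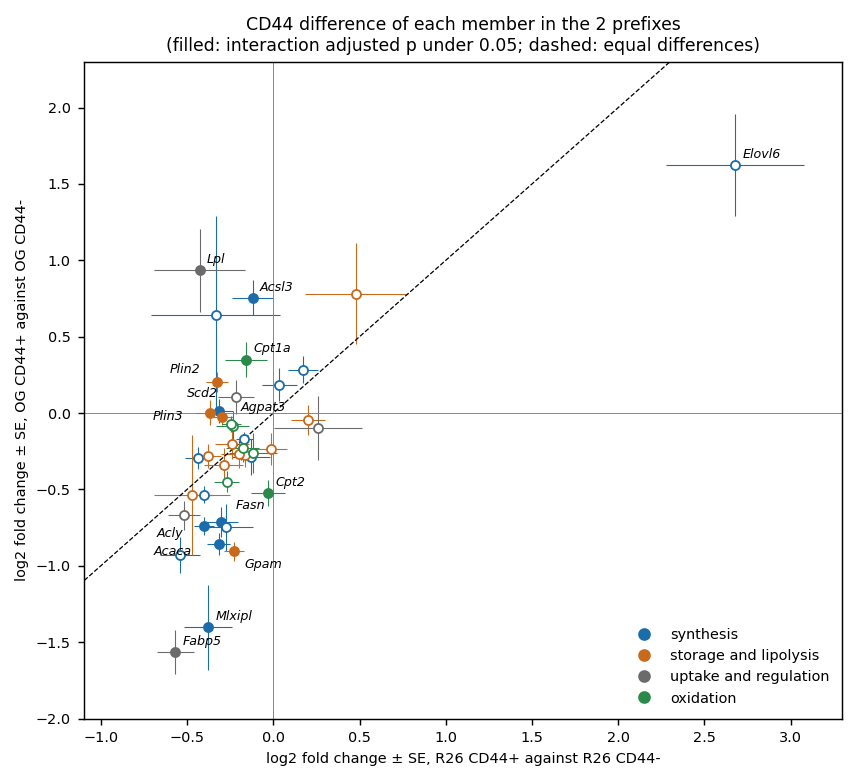
CD44 difference (log2 fold change ± SE) of each of the 42 genes in R26 (x axis) against OG (y axis), filled where the interaction had an adjusted p under 0.05, with the dashed line where both differences are equal. Fabp5, Mlxipl and Gpam lie below the line and Lpl, Acsl3 and Plin2 above it, while Elovl6, with differences of 2.68 and 1.62, was not called.

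The wider pathway was described with 8 lists that hold none of the 42 genes. Their counts are set against 29.6% lower and 39.4% higher over all genes in the CD44- sorts, and 34.6% and 34.5% in the CD44+ sorts. Of 10 genes of SREBP processing and liver X receptor signalling, 7 were lower and 3 higher in OG CD44- against R26 CD44-, which is 70% and 30% of the list, with a median of -0.22. Insig1, which holds the SREBP complex in the endoplasmic reticulum and is itself an SREBP target, fell from 333 ± 31.7 CPM (SD, n = 4) in R26 CD44- to 67.9 ± 2.00 in OG CD44- (-2.30 ± 0.10, 4.04e-13), and in the CD44+ sorts by 2.12 ± 0.10 (1.87e-12). Mlx, the partner of ChREBP, was 0.88 ± 0.07 higher in OG CD44- (2.12e-10). Of 8 genes listed under cytosolic acetyl-CoA and NADPH supply, 5 were lower (62.5%) and 2 higher (25%) in each OG against R26 comparison. Not all of that list is cytosolic. Acss1, a mitochondrial acetyl-CoA synthetase, fell by 1.63 ± 0.07 (1.06e-15) and 2.08 ± 0.08 (5.65e-17), and Pgd, which makes NADPH in the pentose phosphate pathway, rose by 1.75 ± 0.07 (3.15e-17) and 1.70 ± 0.07 (7.43e-17). Of 15 tested genes of other chain building and desaturation, 6 were lower and 6 higher in OG CD44- (40% each), the latter including Elovl7 (1.19 ± 0.06, 1.16e-14) and Fads3 (0.66 ± 0.05, 2.39e-11).

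Of 16 tested genes of other triglyceride and droplet handling, 4 were lower and 6 higher in OG CD44- (25% and 37.5%, near those of all genes). Ces1d, a carboxylesterase with triglyceride hydrolase activity, fell from 501 ± 57.8 to 139 ± 11.8 CPM (-1.86 ± 0.10, 1.17e-11), and Abhd5, the coactivator of adipose triglyceride lipase, from 137 ± 5.22 to 71.0 ± 1.55 CPM (-0.95 ± 0.07, 8.36e-12). Of 23 tested genes of other mitochondrial beta oxidation, 10 were higher and 4 lower in OG CD44- (43.5% higher, near all genes) and 12 higher and 4 lower in OG CD44+ (52.2% higher), while between sorts 12 fell in OG (52.2%, against 28.0% of all genes) and 10 in R26 (43.5%, against 15.4%). Slc25a20, the carnitine carrier of the inner membrane, was 0.91 ± 0.06 higher in OG CD44+ (8.12e-12), fell by 0.38 ± 0.07 between R26 sorts (5.39e-05), and had an interaction of 0.44 ± 0.09 (6.59e-04). Of 21 peroxisomal genes, 7 were lower and 3 higher in OG CD44- (33.3% and 14.3%), and 10 fell between sorts in each prefix (47.6%). Acox2, an oxidase of branched chains and bile acid intermediates, rose from 1.14 ± 0.383 to 23.4 ± 0.904 CPM in OG CD44- (4.37 ± 0.18, 1.85e-16). Acoxl, an acyl-CoA oxidase-like gene, was at 496 ± 52.9 CPM in R26 CD44-, 342 ± 85.9 in R26 CD44+, 83.5 ± 7.35 in OG CD44- and 13.4 ± 0.897 in OG CD44+, with an interaction of -2.10 ± 0.23 (2.12e-05). Of 16 PPAR and PGC1 regulators, 6 were lower and 5 higher in OG CD44- (37.5% and 31.2%). Ppara, the receptor that activates oxidation genes, fell by 1.51 ± 0.13 (2.41e-10) and by 2.06 ± 0.15 in the CD44+ sorts (1.26e-11). Of 11 tested acyl-CoA synthetases and transporters, 4 were lower and 2 higher in OG CD44- (36.4% and 18.2%). Angptl4, a secreted inhibitor of lipoprotein lipase, rose between OG sorts by 1.06 ± 0.11 (2.15e-08).

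**Figure D5:**
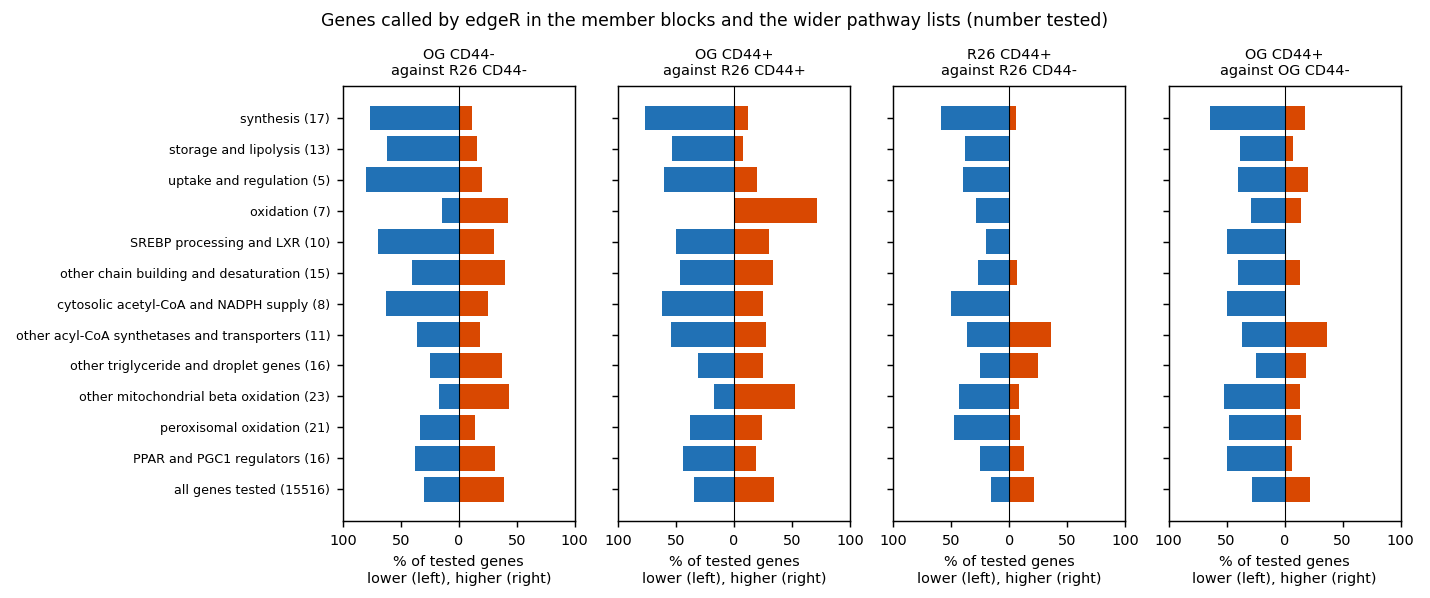
Share of tested genes called lower (left) or higher (right) by edgeR in % (x axis) for the 4 blocks of the 42 genes and the 8 wider lists (y axis, number tested in brackets) in each comparison, with all genes tested at the foot. The synthesis block is lower for 13 of 17 genes in both OG against R26 comparisons, and the oxidation block is higher for 5 of 7 in OG CD44+ against R26 CD44+.

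Across the 16 libraries, the 5 genes whose log2 CPM followed that of Fasn most closely were S100g, a calcium binding protein (Pearson r = 0.993), Mid1ip1, a regulator of acetyl-CoA carboxylase (0.991), Gstt1 (0.990), Gnptg (0.990) and Slc34a2, the AT2 phosphate transporter (0.987). Among the 42 genes r with Fasn was highest for Acly (0.984), Fabp5 (0.974), Srebf1 (0.963), Acaca (0.963) and Cd36 (0.960), and lowest for Pparg (-0.71) and Acadl (-0.65). These values describe 4 group levels shared by 16 libraries from 8 animals, in which the AT2 marker sum fell in the same order.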

How the data were processed

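Total RNA of each sort was depleted of ribosomal RNA and sequenced from stranded libraries, per the labels' protocols. The authors deposited 1 table of raw read counts per NCBI gene identifier for the 16 libraries. Alignment used Bowtie2 and mm10, per the submitters' processing notes, and the counting program, its annotation and its strand setting are not given in the sources used here. Reads of antisense and near-identical genes may therefore be shared. Symbols came from RefSeq (GRCm38.p6), which matched 25275 of 27179 identifiers.

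Counts were filtered with filterByExpr, scaled by TMM and fitted with 4 group means over 16 libraries by the robust quasi-likelihood test of edgeR 4.0.16 in R 4.3.3, with Benjamini-Hochberg adjustment over 15516 genes. SE was derived from the F statistic, as the absolute log2 fold change over its root. The procedure was tested on simulated data for the 4 pairwise comparisons, with libraries drawn independently, and not for the interaction. Adjusted p-values in parentheses throughout are from the edgeR test. Totals of 9022471 to 21363816 counts limit precision for genes of few counts.

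The 42 genes, the lists and the rules were chosen with earlier results of these data known. Values in every library are given for Fasn, Srebf1, Scd1, Dgat2, Plin2, Lpl, Pparg, Cpt1a and Acadvl. Also named are the 3 genes with the largest called change each way per comparison among those with a mean log2 CPM of at least 4, and, per pathway list and comparison, genes from the 2 smallest adjusted p-values. The other genes of the 42 were described by role.

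Same-numbered libraries were read as sorts of 1 animal. Their deviations from group means correlated at 0.126 to 0.240 in R26 and 0.0199 to 0.0967 in OG, and a fit with the animal as a block is given where it changes a call. Alternatives were DESeq2 1.42.0, other scalings and filters, fits of 8 libraries, and leaving out each library. Leaving out OG animal 3 and summing OG animals 5, 6 and 7 were chosen after seeing the data.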

Additional observations from a re-analysis of the deposited data

Results flagged for a closer look

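In 7 of 168 combinations of gene and group, 1 library stood far from the other 3, where chance gives about 1 in 20. Scd2 was at 1481 CPM in R26 CD44- of animal 8, with the nearest library at 1705. Lpin1 was at 21.5 CPM in OG CD44- of animal 7, nearest 23.3. Dgat2 was at 6.93 CPM in R26 CD44+ of animal 1, nearest 3.68. Pnpla2, the adipose triglyceride lipase, was at 237 CPM in R26 CD44- of animal 2, nearest 212, and at 145 CPM in OG CD44- of animal 3, nearest 163. Lpl was at 66.5 CPM in OG CD44+ of animal 3, nearest 33.6. Acadm was at 22.1 CPM in OG CD44+ of animal 6, nearest 25.5.

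For 14 of the 42 genes the CD44 difference differed between OG and R26 by the interaction test, which called 24.7% of all genes tested. The 7 lower were 16.7% of the 42, near the 18.1% of all genes, and the 7 higher 16.7%, against 6.57%. Of the 14 calls, 5 held in every alternative: Gpam, Fabp5, Acaca, Acsl3 and Plin2. On the log2 scale, OG minus R26, the interaction was -1.03 for Mlxipl, -0.997 for Fabp5, -0.68 for Gpam, -0.54 for Acaca, -0.49 for Cpt2, -0.41 for Fasn and -0.34 for Acly. It was 1.36 for Lpl, 0.87 for Acsl3, 0.53 for Plin2, 0.51 for Cpt1a, 0.37 for Plin3, 0.33 for Scd2 and 0.27 for Agpat3.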

How the results depend on the processing

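Of the 42 genes' calls, 17 of 26 between OG sorts and 15 of 20 between R26 sorts held in every alternative that tested the gene. Between prefixes, 29 of 34 held in CD44- and 27 of 32 in CD44+ cells, and 5 of 14 held for the interaction. An alternative that did not test a gene was not counted as a loss, which applied to Elovl6, Thrsp and Dgat2. Between R26 sorts, 3 genes rose with library totals alone, against 1 in the main fit, Elovl6. With a minimum of 50 counts in 4 libraries 0 rose, but that filter left Elovl6 untested. For the interaction, 4 genes were lower with OG animal 7 CD44- as TMM reference and 11 with the replicate block, against 7. The block changed the calls named beside the results and no others. With OG animals 5, 6 and 7 summed to 1 library per sort, 5126 genes in all were called between OG sorts, against 7815, with 2 of the 42 higher, and 1834 for the interaction, against 3825, with 2 higher and 3 lower. That alternative has fewer samples.

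Leaving out each library in turn, genes lower between R26 sorts numbered 19 to 29 (29 without R26 CD44+ animal 8). Genes higher in OG CD44- against R26 CD44- numbered 5 to 8 (5 without R26 CD44- animal 7). For the interaction, 5 to 12 were higher (12 without R26 CD44+ animal 2, 11 without animal 8) and 3 to 7 lower (3 without R26 CD44- animal 2 or R26 CD44+ animal 2 or 7, 4 without R26 CD44- animal 1, 7 or 8). The interaction of Elovl5 ranged from -0.017 to 0.17, with an adjusted p of 0.0419 at the latter, without R26 CD44+ animal 2. The share of higher calls over all genes was 42.4% to 45.2% between R26 sorts without any single R26 library, against 58.4%, and 48.6% to 48.9% in OG CD44- against R26 CD44- without any single R26 CD44- library, against 57.1%. The causes were not tested. Depth limits Thrsp, Elovl6, Mlxipl and Dgat2, which had few counts in some groups.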
